A study of Mus musculus with 14 samples.

Results

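The monocarboxylate transporter family Slc16 encodes membrane carriers for lactate, pyruvate, ketone bodies and related small acids, and for aromatic amino acids, thyroid hormone, carnitine and creatine. Of this family, 9 genes were taken by symbol from the deposited gene counts, namely Slc16a1, Slc16a3, Slc16a4, Slc16a6, Slc16a7, Slc16a9, Slc16a10, Slc16a11 and Slc16a13, out of 55401 genes counted. The rule used the symbols and no measured value, but the members were chosen with earlier results of these data known. All 9 were among the 17671 genes that passed the filter on low counts.

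RNA of bone marrow plugs flushed from distal tibiae, a site rich in constitutive bone marrow adipose tissue, was sequenced in 14 samples, each pooled from 2 male C57BL6/SJL mice of 24 weeks of age. BMAd-Pnpla2+/+ mice gave 4 samples with ad libitum feeding (AL) and 4 after a caloric restriction (CR) of 30% for 6 weeks, and BMAd-Pnpla2-/- mice gave 3 samples of each diet. BMAd stands for bone marrow adipocyte, and Pnpla2 encodes adipose triglyceride lipase, which takes the first step in the breakdown of stored fat. Both genotypes belong to a line in which FLPo made from the Osterix locus turns on a Cre placed in the Adipoq gene, so that Cre is limited largely to BMAds, and the BMAd-Pnpla2-/- mice also carry floxed Pnpla2. By the account of the line, recombination does not occur in every BMAd, so that some BMAds of the BMAd-Pnpla2-/- mice may keep intact Pnpla2. The inserted cassette lowers adiponectin protein, a limit that both genotypes share. The line also marks a small part of the stromal cells. The plug further holds blood-forming, vessel and bone cells, which the line is not meant to target. In a bulk sample of this kind, fewer cells of a type and less RNA per cell cannot be told apart.

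Monocarboxylate transporters with a known lactate role carry the acid together with a proton, so that the direction of transport follows the gradients across the membrane. The carrier encoded by Slc16a1 (MCT1) is found in most tissues and moves lactate, pyruvate and ketone bodies both ways, that of Slc16a7 (MCT2) binds the same acids more tightly, and that of Slc16a3 (MCT4) is best known for lactate export from cells with strong glycolysis. Bone marrow is a tissue of active glycolysis, and adipocytes release lactate as well.

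Between 18898324 and 21665553 reads per sample were counted on genes without regard to strand, and counts are given here as CPM, the count scaled to the size of the library after TMM normalization. The 3 BMAd-Pnpla2-/- CR samples had 50.1 to 50.5% of their gene reads on the first strand and so carry no strand information. The 11 samples of the other groups had 4.3 to 4.62% there, as stranded libraries do. In the deposited matrix the 11 samples hold the count on the reverse strand, which is the sense strand of these libraries, whereas the 3 BMAd-Pnpla2-/- CR samples hold the unstranded count. For this reason the unstranded count of all 14 samples was compared here. The kind of library and the BMAd-Pnpla2-/- CR group cannot be told apart. Every one of the 8 adipocyte markers checked was present in all samples, with a summed level from 489 to 5934 CPM. Pnpla2 measured 301, 174, 199 and 190 CPM on AL and 804, 991, 1015 and 502 CPM under CR in BMAd-Pnpla2+/+ mice. In BMAd-Pnpla2-/- mice it measured 135, 170.1 and 131 CPM on AL and 177, 219 and 267 CPM under CR, so that on each diet the BMAd-Pnpla2-/- samples lay below all BMAd-Pnpla2+/+ samples. Its log2 fold change between genotypes was -0.57 (standard error 0.25, adjusted p = 1.0) with AL and -1.90 (standard error 0.26, adjusted p = 0.0386) under CR.

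Promoter sequence from RefSeq on GRCm38.p6 was found for 6 of the 9 members, as the 250 bases before the RefSeq start of the gene. For Slc16a3 this start lies downstream of the first GENCODE start given below, so that its window is inside the annotated gene. The windows of Slc16a1 and Slc16a3 are shown because these 2 lactate carriers were the members called lower under CR, and that of Slc16a4 because its reads lay mostly on the strand opposite to the gene. Letters run 5′ to 3′ on the strand of the gene. Capitals mark matches on either strand to ACGTG, the core bound by hypoxia-inducible factors, to GGGCGG, the GC box, and to TATAAA, the TATA box.
Slc16a1 promoter, chr3:104638414-104638663, + strand: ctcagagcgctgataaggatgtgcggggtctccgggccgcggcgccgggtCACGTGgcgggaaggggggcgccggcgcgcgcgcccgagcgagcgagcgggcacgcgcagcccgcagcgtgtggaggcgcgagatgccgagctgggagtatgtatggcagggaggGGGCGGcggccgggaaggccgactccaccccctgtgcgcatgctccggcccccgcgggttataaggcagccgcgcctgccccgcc
Slc16a3 promoter, chr11:120948817-120949066, + strand: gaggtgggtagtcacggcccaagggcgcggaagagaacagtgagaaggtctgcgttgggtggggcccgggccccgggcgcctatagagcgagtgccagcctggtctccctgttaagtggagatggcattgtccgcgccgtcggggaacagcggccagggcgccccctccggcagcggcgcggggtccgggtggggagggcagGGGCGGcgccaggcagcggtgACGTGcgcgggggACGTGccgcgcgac
Slc16a4 promoter, chr3:107290980-107291229, + strand: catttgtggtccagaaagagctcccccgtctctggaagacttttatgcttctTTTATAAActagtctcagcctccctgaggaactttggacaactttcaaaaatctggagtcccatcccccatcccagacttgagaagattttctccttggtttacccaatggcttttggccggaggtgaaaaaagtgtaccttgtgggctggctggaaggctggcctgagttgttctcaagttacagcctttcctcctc
The window of Slc16a1 is 76.4% G and C and holds 1 CACGTG, which reads ACGTG on both strands, and 1 GGGCGG. That of Slc16a3, 73.6% G and C with 14 bases inside an annotated exon, holds ACGTG 2 times without a CACGTG, and GGGCGG 1 time. Slc16a4 has 48% G and C, with no ACGTG and no GGGCGG, and 1 TATAAA overlapping another on the opposite strand. Over the 32817 promoter windows of the same length, 16.6% held ACGTG, 6.02% held CACGTG, 32.7% held GGGCGG and 12.4% held TATAAA. A match describes the letters alone.

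Levels per length differed widely within the family. Divided by the length of the merged exons, the mean over the 14 samples was 32.7 CPM per kilobase for Slc16a1 (range 11.5 to 56.03), 19.2 for Slc16a3 (11.5 to 29.6), 16.8 for Slc16a10 (7.67 to 26.0) and 14.7 for Slc16a6 (8.998 to 19.3). A gap followed, and the mean was 2.22 CPM per kilobase for Slc16a9 (1.19 to 4.25), 1.32 for Slc16a13 (0.99 to 1.86), 1.16 for Slc16a7 (0.644 to 1.72), 0.817 for Slc16a4 (0.461 to 1.51) and 0.595 for Slc16a11 (0.207 to 1.11). Slc16a6 exceeded Slc16a9 in 14 of 14 samples, and their ranges did not overlap. Slc16a1 exceeded Slc16a3 in 13 of the 14 samples, and in 10 with the longest transcript as the length, and their ranges over all samples overlapped. Within the upper 4 genes Slc16a3 exceeded Slc16a10 in 9 of 14 samples with either length. In the lower 5 genes Slc16a13 exceeded Slc16a7 in 9 and Slc16a4 exceeded Slc16a11 in 10, so that these neighbours do not differ beyond their spread. The order of Slc16a10 and Slc16a6 depended on the count and the length. Slc16a10 exceeded Slc16a6 in 9 of 14 samples with merged exons and in 13 with the longest transcript, but the unstranded count leaves out reads of Slc16a6 that overlap a gene on the other strand. On the sense strand of the 11 stranded samples, a comparison chosen after seeing the data, Slc16a6 exceeded Slc16a10 in 11 of 11 samples, with means of 19.5 and 15.3 CPM per kilobase, and the mean of Slc16a3 was 19.4. With the longest transcript Slc16a4 and Slc16a7 changed places, and the other 7 members kept theirs. The unstranded level of Slc16a4 counts reads of both strands, most of which are not sense reads in the stranded samples, and the same holds for Slc16a11. Their sense means were 0.0718 CPM per kilobase for Slc16a4 and 0.199 for Slc16a11.

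**Figure D1:**
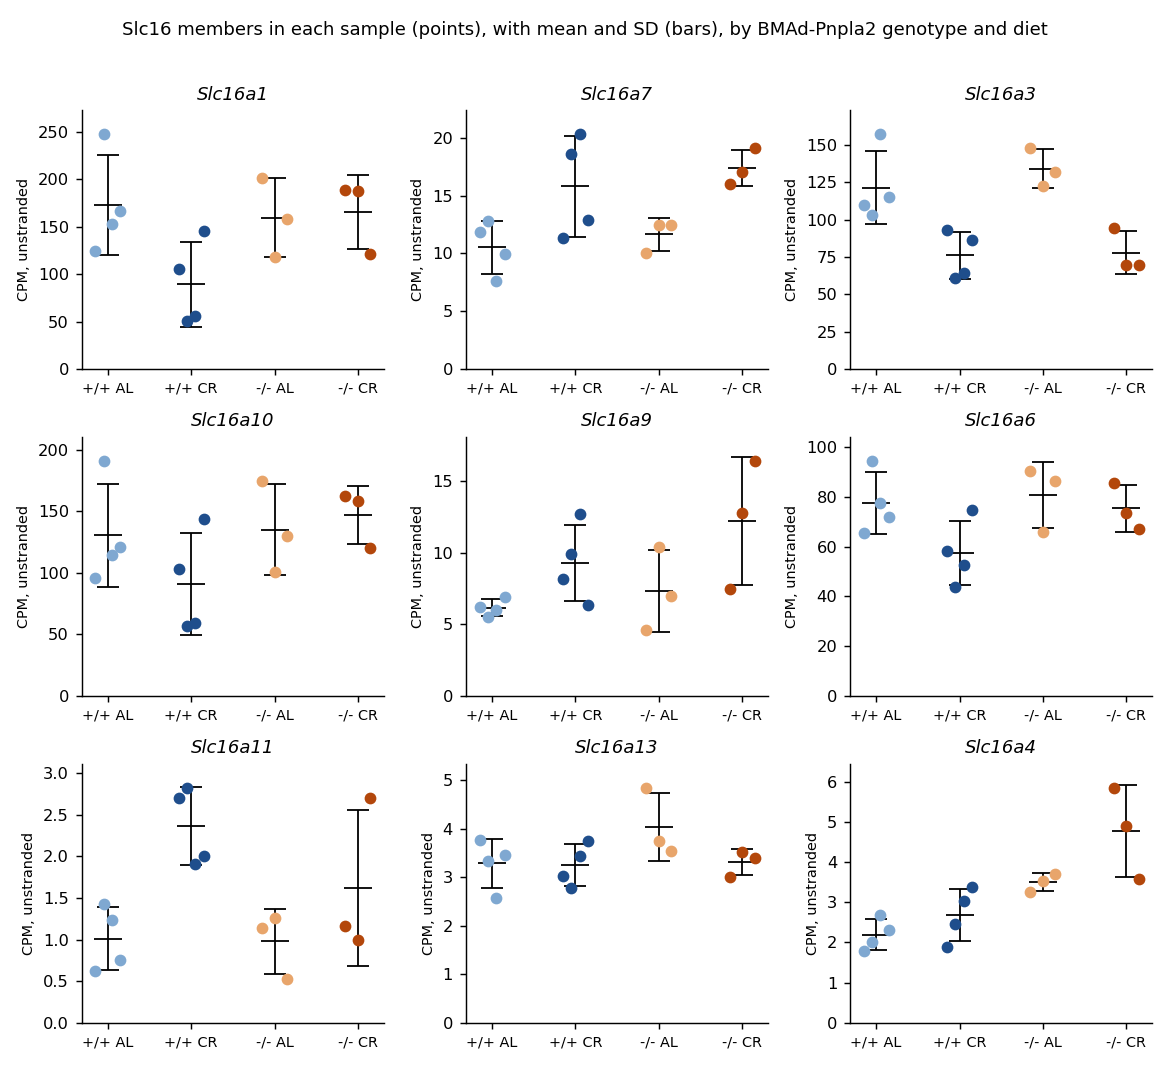
Unstranded CPM (vertical axes, each from 0) of each Slc16 member in each of the 14 samples, by genotype (BMAd-Pnpla2+/+ or BMAd-Pnpla2-/-) and diet (AL or CR); points are samples, bars the mean and SD (n = 4, 4, 3 and 3). The points of Slc16a3 under CR, 61.1 to 94.6 CPM, sit below all its AL points, 103.3 to 158 CPM, in both genotypes.

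The first comparison asked how the family responded to CR in mice with an intact Pnpla2. CR against AL in BMAd-Pnpla2+/+ mice gave 4 of the 9 members an adjusted p under 0.05. The lactate carriers Slc16a1 and Slc16a3 were lower by 1.93-fold and 1.59-fold, whereas Slc16a7 was higher by 1.499-fold and Slc16a11 by 2.34-fold. Of all 17671 genes tested, 26% were called in this comparison, 15.1% higher and 10.9% lower. The median log2 fold change was -0.02 over the 9 members and 0.003 over all genes.

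Slc16a1 (ENSMUSG00000032902.1) is a forward-strand gene of chromosome 3 of GRCm38, from 104638668 to 104658462, with 1 annotated transcript of 5 exons. It measured 125, 248, 153 and 167 CPM on AL and 105, 50.7, 56.04 and 146 CPM under CR in the 8 BMAd-Pnpla2+/+ samples, in the order of the replicates. CR samples 2 and 3 were the lowest, and CR sample 4 lay above AL sample 1, so that the groups overlapped. CR changed its log2 level by -0.95 (standard error 0.33, adjusted p = 0.0466). This call was lost when any of 7 samples was left out in turn. The adjusted p for Slc16a1 was then 0.137, 0.0639 and 0.0738 without BMAd-Pnpla2+/+ AL replicate 2, 3 or 4, 0.109 and 0.127 without BMAd-Pnpla2+/+ CR replicate 2 or 3, 0.0585 without BMAd-Pnpla2-/- AL replicate 3 and 0.0594 without BMAd-Pnpla2-/- CR replicate 2. Markers of erythroid cells, which rely on MCT1 to exchange lactate with plasma, varied in the same order as Slc16a1 within the CR group but not between diets. The sum of 8 erythroid markers was 30436, 9858, 10134 and 47720 CPM in the 4 BMAd-Pnpla2+/+ CR samples, again lowest in samples 2 and 3, and 16585, 29571, 27040.2 and 26614 CPM in the 4 AL samples. CR samples 1 and 4 thus had a higher erythroid sum than these 4 AL samples, while Slc16a1 there was below at least 3 of them. None of the 8 passed the test in either diet comparison, and their part in the values of Slc16a1 was not tested.

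Slc16a3 (ENSMUSG00000025161.16) is a forward-strand gene of chromosome 11, from 120948480 to 120960868, and has 8 transcripts. Its level was 110.1, 103.3, 158 and 115 CPM on AL and 93.0, 61.1, 64.2 and 86.5 CPM under CR in BMAd-Pnpla2+/+ samples. Every CR sample lay below every AL sample. Slc16a3 fell with a log2 fold change of -0.67 (standard error 0.17, adjusted p = 0.0132), and it was called in all 14 fits that each left out 1 sample, with adjusted p from 0.00898 to 0.0465. Neutrophils are a glycolytic cell type of marrow. Of 8 neutrophil markers 7 were called lower with CR in BMAd-Pnpla2+/+ mice, and their summed level was 16948 to 22671 CPM in AL and 7577 to 13234 CPM in CR samples, with the lowest values in CR samples 2 and 3 as for Slc16a3. Their part in the lower Slc16a3 was not tested.

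Slc16a7 (ENSMUSG00000020102.15), on the reverse strand of chromosome 10 from 125219270 to 125389465, measured 11.8, 12.8, 7.62 and 9.91 CPM on AL and 11.3, 18.6, 20.3 and 12.9 CPM under CR in BMAd-Pnpla2+/+ samples. CR samples 2 and 3 stood highest, CR sample 1 lay inside the AL range and sample 4 just above it. Its log2 fold change was 0.58 (standard error 0.20, adjusted p = 0.0438). The call of Slc16a7 was lost in 9 of the 14 fits without 1 sample, with adjusted p of 0.138 and 0.0918 without BMAd-Pnpla2+/+ AL replicate 3 or 4, 0.118 and 0.146 without BMAd-Pnpla2+/+ CR replicate 2 or 3, and 0.05 to 0.0575 without BMAd-Pnpla2+/+ AL replicate 1, BMAd-Pnpla2-/- AL replicate 3 or any of the 3 BMAd-Pnpla2-/- CR samples. The 8 adipocyte markers were all called higher with CR in these mice, and their sum was 1982, 940, 1062 and 917 CPM in the AL samples and 4796, 5732, 5934 and 2376 CPM in the CR samples. Of 5 endothelial markers 4 were called higher, with a sum of 456, 679, 599 and 357 CPM in the CR samples and 297 to 430 CPM in the AL samples. Of 4 marrow stromal markers 2 were called higher, with a sum of 5472, 8718, 8046 and 4825 CPM in the CR samples and 4095 to 5098 CPM in the AL samples. The adipocyte, endothelial and stromal sums were all highest in CR samples 2 and 3, as Slc16a7 was. Most of the stromal sum was Cxcl12, with a mean of 5252 CPM, which was not called (adjusted p = 0.121). The macrophage and monocyte sum was highest there too, at 1915, 2412, 2477 and 2031 CPM in the CR samples. Of these 8 markers 2 were called higher and 1 lower. The part of any of these cell types in the rise of Slc16a7 was not tested.

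Slc16a11 (ENSMUSG00000040938.16) encodes a carrier linked in human genetics to lipid metabolism and diabetes risk. It is a forward-strand gene of chromosome 11, from 70212752 to 70216417, and had the lowest unstranded level per length of the 9 members, with 13, 27, 24 and 16 reads on AL and 57, 62, 43 and 38 reads under CR in BMAd-Pnpla2+/+ samples. These are 0.628, 1.42, 1.24 and 0.758 CPM against 2.70, 2.83, 1.91 and 2.00 CPM, with no overlap. The log2 fold change of 1.22 (standard error 0.37, adjusted p = 0.0296) was the only one of the 9 members over 1, the limit the study set beside adjusted p. Of all genes tested 9.28% met both criteria here, and 7.33% of all genes did so as higher. The call of Slc16a11 was lost in 5 of 14 fits, with adjusted p of 0.0675, 0.0509 and 0.073 without BMAd-Pnpla2+/+ AL replicate 1, 3 or 4 and 0.0603 and 0.0742 without BMAd-Pnpla2+/+ CR replicate 1 or 2. The adipocyte markers were higher under CR as well. Within the BMAd-Pnpla2+/+ groups Slc16a11 was lowest in AL sample 1 and CR sample 3, the samples with the highest adipocyte sum on each diet. Within the BMAd-Pnpla2-/- groups it was highest in AL sample 2 and CR sample 3, at 1.26 and 2.70 CPM. Those samples also had the highest adipocyte sums of their groups, 1026 and 2701 CPM. Of 6 osteoblast markers 3 were called higher, with a sum of 3506, 3042, 1189 and 737 CPM in the CR samples and 528 to 1136 CPM in the AL samples. The part of either cell type in the values of Slc16a11 was not tested. Only Slc16a3 and Slc16a11 had groups that did not overlap in BMAd-Pnpla2+/+ mice, whereas 10.4% of all genes did not overlap in the lower direction and 12.4% in the higher.

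The other 5 members did not pass. Slc16a10, which encodes the carrier TAT1 for aromatic amino acids and thyroid hormones (ENSMUSG00000019838.11, reverse strand of chromosome 10, 40033532 to 40142258), measured 95.8, 191, 114 and 121 CPM on AL and 103.2, 56.4, 59.3 and 144 CPM under CR in BMAd-Pnpla2+/+ samples. As for Slc16a1, CR samples 2 and 3 were the lowest and CR sample 4 the highest of its group, and the groups overlapped. The log2 fold change of Slc16a10 was -0.53 (standard error 0.30, adjusted p = 0.204), and -0.84 with adjusted p = 0.0343 without BMAd-Pnpla2+/+ CR replicate 4. Slc16a6 (MCT7, ENSMUSG00000041920.14, reverse strand of chromosome 11, 109450855 to 109473598), linked to ketone body export from liver cells, measured 65.4, 94.4, 77.5 and 72.0 CPM with AL and 58.1, 43.9, 52.7 and 74.5 CPM with CR. Its log2 fold change was -0.43 (standard error 0.16, adjusted p = 0.0636), and the adjusted p of Slc16a6 was 0.0491 without BMAd-Pnpla2+/+ AL replicate 1 and 0.0114 without BMAd-Pnpla2+/+ CR replicate 4.

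Slc16a9 (MCT9, ENSMUSG00000037762.6, forward strand of chromosome 10, 70245100 to 70285968) carries carnitine. Its level was 6.23, 5.49, 6.02 and 6.92 CPM on AL and 8.15, 9.94, 12.7 and 6.38 CPM under CR in BMAd-Pnpla2+/+ samples, of which 3 of 4 exceeded all AL samples. The log2 fold change of Slc16a9 was 0.59 (standard error 0.28, adjusted p = 0.128). Slc16a4 (MCT5), a carrier whose substrates are poorly known, had 0.29 (standard error 0.22, adjusted p = 0.343). Slc16a13 (ENSMUSG00000044367.7, reverse strand of chromosome 11, 70216789 to 70221064), described as a lactate carrier of liver, had -0.02 (standard error 0.18, adjusted p = 0.95), with 2.57 to 3.77 CPM in AL and 2.78 to 3.75 CPM in CR samples.

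**Figure D2:**
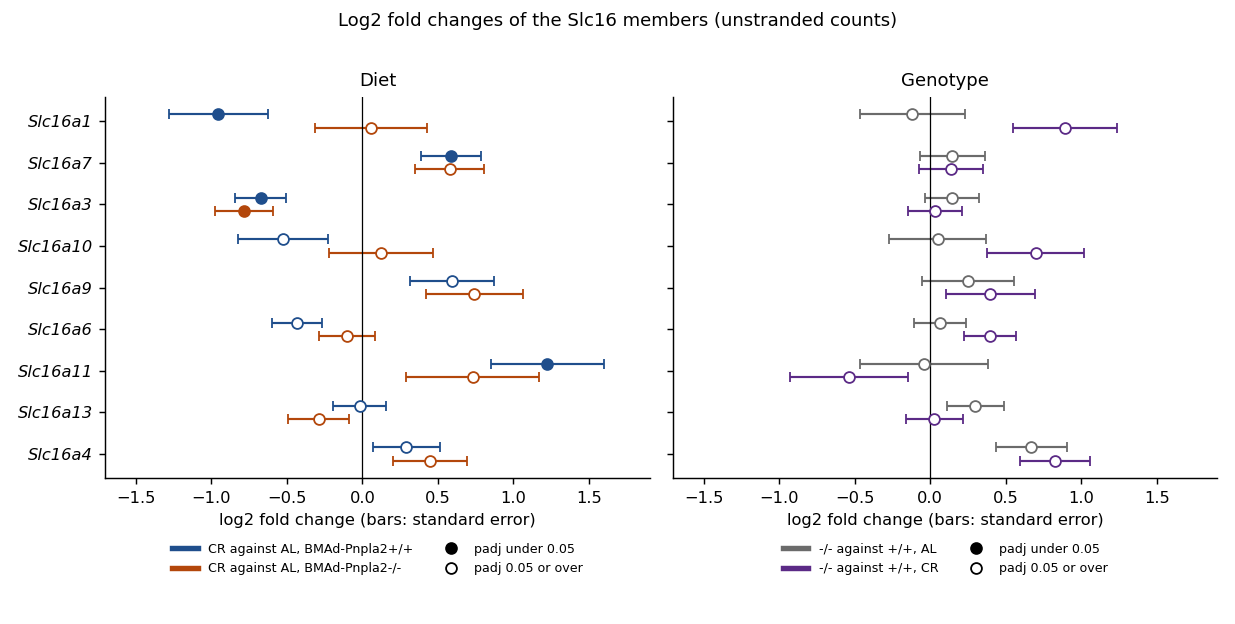
Log2 fold changes (horizontal axes) of the 9 Slc16 members by diet (left, CR against AL in each genotype) and by genotype (right, BMAd-Pnpla2-/- against BMAd-Pnpla2+/+ on each diet), with standard errors as bars and filled points where adjusted p was under 0.05. Filled points are Slc16a1, Slc16a3, Slc16a7 and Slc16a11 in BMAd-Pnpla2+/+ and Slc16a3 in BMAd-Pnpla2-/- mice.

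The second comparison put the same question to mice with Pnpla2 deleted in BMAds. CR against AL in BMAd-Pnpla2-/- mice called 1 of the 9 members, Slc16a3, which fell 1.72-fold. Of all genes 11.6% were called, 6.04% higher and 5.57% lower, and the median log2 fold change was 0.12 over the members and 0.05 over all genes. Slc16a3 measured 148, 122 and 132 CPM in the 3 BMAd-Pnpla2-/- AL and 94.6, 69.4 and 69.8 CPM in the 3 BMAd-Pnpla2-/- CR samples, so that every CR sample was lower. Its log2 fold change was -0.78 (standard error 0.19, adjusted p = 0.0227). The adjusted p of Slc16a3 was 0.0751 and 0.0561 without BMAd-Pnpla2-/- AL replicate 1 or 3, and 0.0821 and 0.0982 without BMAd-Pnpla2-/- CR replicate 2 or 3. No neutrophil marker was called in this comparison, with sums of 17083.5, 15926 and 17739.5 CPM in AL and 16659, 10415 and 10357 CPM in CR samples. The sample highest in these markers within the CR group was also the highest in Slc16a3, and the part of these cells was not tested.

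Slc16a1 measured 202, 118 and 158 CPM on AL and 189, 188 and 121 CPM under CR in BMAd-Pnpla2-/- samples. The ranges were almost the same, with a log2 fold change of 0.06 (standard error 0.37, adjusted p = 0.938). Slc16a10 showed the same order of samples, at 174, 101 and 130 CPM with AL and 163, 158 and 120.3 CPM with CR, and a log2 fold change of 0.12 (adjusted p = 0.848). Slc16a7 measured 10.01, 12.4 and 12.5 CPM with AL and 15.98, 17.04 and 19.1 CPM with CR. All CR samples of Slc16a7 were higher, and its log2 fold change of 0.58 (standard error 0.23, adjusted p = 0.112) had the size seen in BMAd-Pnpla2+/+ mice without passing the threshold. Of the 8 adipocyte markers 7 were called higher in this comparison, with a sum of 489 to 1026 CPM in AL and 1717 to 2701 CPM in CR samples, and their part in the values of Slc16a7 was not tested. When the 2 BMAd-Pnpla2-/- groups were fitted alone, the adjusted p of Slc16a7 was 0.0395, and 2672 of 16576 genes were called. In the fits that each left out 1 sample, Slc16a7 was called in 0 of 14, with adjusted p from 0.0896 to 0.356.

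Slc16a11 had 21, 24 and 10 reads on AL and 22, 19 and 55 under CR in BMAd-Pnpla2-/- samples. Only CR sample 3 stood above the AL range, and the log2 fold change of Slc16a11 was 0.73 (standard error 0.44, adjusted p = 0.295). The same sample stood apart in skeletal muscle markers, with a sum of 124 CPM beside 7.34 to 38.1 CPM in the other 13 samples. Within its group it was also highest in the adipocyte, endothelial, stromal, macrophage and monocyte, and pro-B and pre-B sums. In the erythroid, neutrophil and osteoblast sums it was the lowest, and the part of muscle RNA or of any of these cell types was not tested. Slc16a9 measured 4.62, 10.4 and 6.98 CPM with AL and 7.49, 12.8 and 16.4 CPM with CR, with a log2 fold change of 0.74 (standard error 0.32, adjusted p = 0.143). Slc16a13, at 4.84, 3.74 and 3.54 CPM with AL and 3.01, 3.52 and 3.38 CPM with CR, did not overlap between diets but did not pass, with a log2 fold change of -0.29 (standard error 0.20, adjusted p = 0.374). Groups without overlap were thus 1 member higher and 2 lower, beside 20.5% and 17.4% of all genes. Slc16a6 had a log2 fold change of -0.10 and Slc16a4 of 0.45, with adjusted p of 0.764 and 0.249.

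The third comparison asked what the loss of Pnpla2 changed with free feeding. No member passed the test in BMAd-Pnpla2-/- against BMAd-Pnpla2+/+ mice on AL, where 0% of all genes were called by edgeR, 3.96% had an unadjusted p under 0.05 and DESeq2 called 17 genes. The median log2 fold change was 0.14 over the members and -0.0082 over all genes. Slc16a4 had the largest, 0.67 (standard error 0.24, unadjusted p = 0.0133, adjusted p = 1.0). It measured 1.79, 2.00, 2.68 and 2.32 CPM in BMAd-Pnpla2+/+ AL and 3.26, 3.53 and 3.70 CPM in BMAd-Pnpla2-/- AL samples, with no overlap, as did 2.32% of all genes in that direction. Most of these reads lay on the strand opposite to the gene, 33 to 51 per sample in BMAd-Pnpla2+/+ and 59 to 67 in BMAd-Pnpla2-/- mice. Sense reads numbered 1 to 4 and 1 to 8, so that the difference is one of reads on the opposite strand. The log2 fold changes of the other 8 members lay between -0.12 for Slc16a1 and 0.30 for Slc16a13.

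Under CR, no member passed the test between BMAd-Pnpla2-/- and BMAd-Pnpla2+/+ mice, which called 2 genes of all, or 0.0113%. The median log2 fold change was 0.39 over the members and -0.011 over all genes. An unadjusted p under 0.05 was found for 4 members, Slc16a4, Slc16a1, Slc16a6 and Slc16a10, beside 23.2% of all genes, and DESeq2 called 1513 genes of all and Slc16a4 among the members. Slc16a4 measured 1.895, 2.46, 3.02 and 3.38 CPM in BMAd-Pnpla2+/+ CR and 5.85, 4.89 and 3.58 CPM in BMAd-Pnpla2-/- CR samples. The groups did not overlap, as for 8.65% of all genes in that direction. Most reads of Slc16a4 in the BMAd-Pnpla2+/+ CR samples lay on the strand opposite to the gene, and the BMAd-Pnpla2-/- CR samples carry no strand information. The log2 fold change of Slc16a4 was 0.83 (standard error 0.23, adjusted p = 0.0823), and 0.80 with adjusted p = 0.0219 by DESeq2.

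Slc16a1 differed by 0.89 on the log2 scale between genotypes under CR (standard error 0.35, adjusted p = 0.156), with CR sample 4 of BMAd-Pnpla2+/+ mice inside the BMAd-Pnpla2-/- range. Slc16a10 differed by 0.70 (standard error 0.32, adjusted p = 0.212) and Slc16a6 by 0.39 (standard error 0.17, adjusted p = 0.197). Without BMAd-Pnpla2+/+ CR replicate 4, the sample with the most erythroid RNA, 4 members were called higher, with adjusted p of 0.0329 for Slc16a1, 0.0299 for Slc16a4, 0.0436 for Slc16a10 and 0.0439 for Slc16a6. Of 17618 genes tested 2112 were then called. The erythroid sum was 28290, 37922 and 45598 CPM in the 3 BMAd-Pnpla2-/- CR samples. BMAd-Pnpla2+/+ CR replicate 4 was also lowest of its group in the adipocyte, endothelial, stromal and osteoblast sums, at 2376, 357, 4825 and 737 CPM. The part of any of these cell types in the genotype differences was not tested. Slc16a11 had a log2 fold change of -0.54 (adjusted p = 0.427), Slc16a9 one of 0.40 (adjusted p = 0.438), and Slc16a3, Slc16a7 and Slc16a13 lay between 0.03 and 0.14.

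Whether the response to CR differed with genotype was tested as an interaction, and no member passed, as 0% of all genes did with edgeR, although 10.4% had an unadjusted p under 0.05 and DESeq2 called 45 genes. The largest difference of responses was that of Slc16a1, 1.01 on the log2 scale (standard error 0.49, adjusted p = 0.504), followed by Slc16a10 with 0.65 (standard error 0.46, adjusted p = 0.615). For Slc16a3 it was -0.11 (standard error 0.25, adjusted p = 0.892) and for Slc16a7 -0.01 (standard error 0.30, adjusted p = 0.995). The call of Slc16a1 in BMAd-Pnpla2+/+ and not in BMAd-Pnpla2-/- mice is therefore not shown to be a difference between the genotypes. The diet and genotype comparisons share groups of samples, so their values are given side by side and no overlap is drawn from them.

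**Figure D3:**
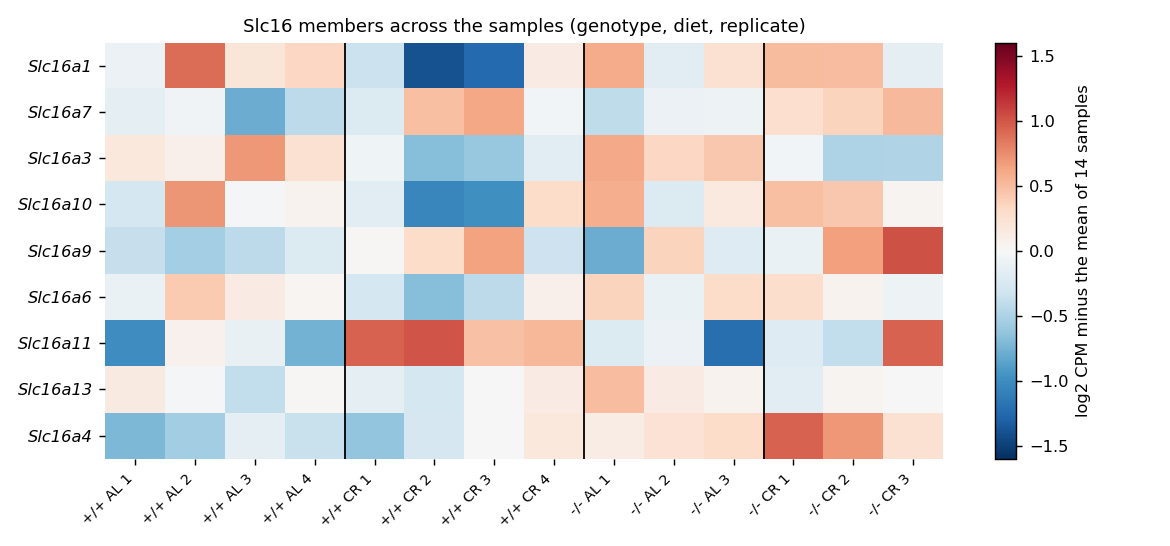
Log2 CPM of each Slc16 member (rows) in each sample (columns, by genotype, diet and replicate), less the mean of that member over the 14 samples; red is higher and blue lower. Slc16a1 and Slc16a10 share their lowest columns, BMAd-Pnpla2+/+ CR samples 2 and 3, while Slc16a7 and Slc16a9 are high there.

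Members were also compared by their pattern across the 14 samples. Likeness was measured as the root mean square difference of log2 CPM, each gene less its own mean, so that 0 is the same pattern. The closest pair was Slc16a1 and Slc16a10 with 0.188, followed by Slc16a6 and Slc16a10 with 0.256, Slc16a6 and Slc16a13 with 0.298 and Slc16a7 and Slc16a9 with 0.326. The farthest pair was Slc16a1 and Slc16a11 with 1.15. Among all genes with a mean of at least 5 CPM, those nearest to Slc16a1 were Fignl1 at 0.0996 and Cenph at 0.11, the first an ATPase of DNA repair and the second a kinetochore protein. Nearest to Slc16a3 were Rasgrp4 at 0.0906, a Ras activator, and Hk3 at 0.13, a hexokinase. Slc16a7 had Intu at 0.119, a protein of primary cilia, and Sema6d at 0.136, a semaphorin. For Slc16a11, whose counts were the lowest, the nearest were Bcl11b at 0.382, a transcription factor, and Pcsk4 at 0.422, a protease. The samples fall into groups by diet, which all these genes share, and no test was made of these distances.

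The strand of the reads told sense from antisense in the 11 stranded samples. Over these samples the sense strand held 99.7% of the reads of Slc16a1, 97.2% for Slc16a3, 96.3% for Slc16a6, 99.0% for Slc16a7, 99.6% for Slc16a9, 99.1% for Slc16a10 and 98.8% for Slc16a13. The median over all genes tested was 99%, and 7.14% of them had less than 50% sense reads. Slc16a4 and Slc16a11 were 2 such genes. Of the reads of Slc16a4, 65 lay on the sense strand and 534 on the other, so that 10.9% were sense, from 1.67 to 29.6% in single samples. Slc16a11 had 118 sense reads and 222 on the other strand, or 34.7% sense, from 0 to 73.7%. In the 3 BMAd-Pnpla2-/- CR samples the share lay between 35.8 and 55.9% for every member.

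**Figure D4:**
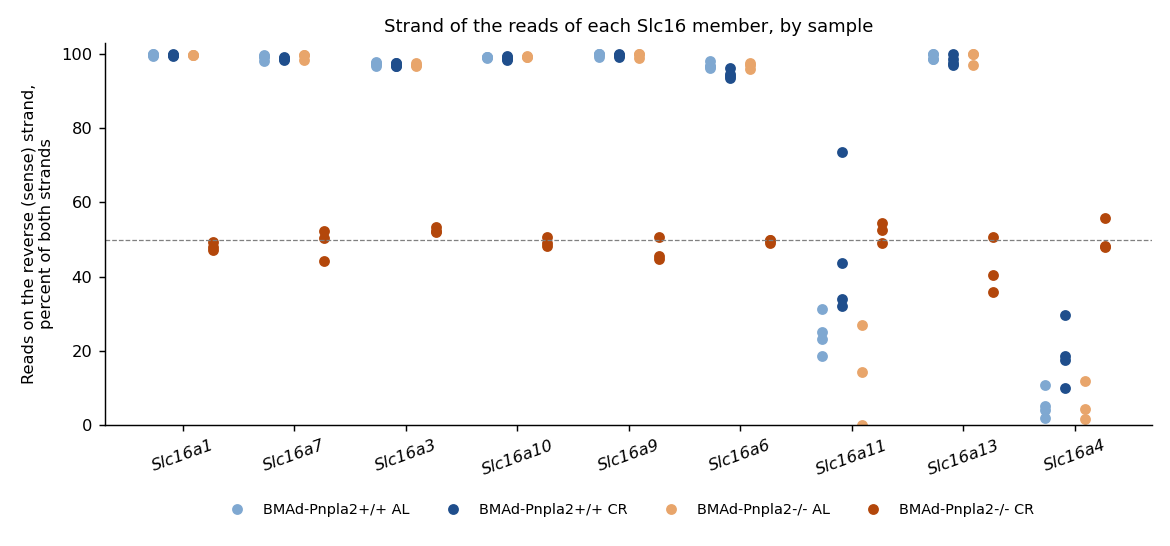
Reads on the reverse (sense) strand as a percent of those on both strands (vertical axis) for each Slc16 member in each sample, coloured by group; the dashed line marks 50%. In the 11 stranded samples 7 members lie at or above 93.4%, Slc16a4 lies below 30% and Slc16a11 is spread from 0 to 73.7%, while the 3 BMAd-Pnpla2-/- CR samples lie around 50% for all.

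Slc16a4 (ENSMUSG00000027896.15) spans chromosome 3 from 107291230 to 107312115 on the forward strand in 11 merged exons, and the annotation used lists no gene on the other strand within 3000 bases. Its sense reads numbered 4, 2, 1 and 2 on AL and 4, 16, 12 and 12 under CR in BMAd-Pnpla2+/+ mice, and 1, 8 and 3 in the BMAd-Pnpla2-/- AL samples. Reads on the other strand numbered 33, 36, 51 and 47, then 36, 38, 56 and 52, and 59, 59 and 67. The sense reads of 3 of the 4 CR samples exceeded all AL samples, while the other strand gave 33 to 51 reads on AL and 36 to 56 under CR in BMAd-Pnpla2+/+ mice. On the sense strand alone the log2 fold change of Slc16a4 with CR in BMAd-Pnpla2+/+ mice was 2.15 (standard error 0.62, adjusted p = 0.0318), where 23.9% of all genes were called. On the other strand it was 0.09 (standard error 0.25, adjusted p = 0.891), and without strand 0.29. The filter on low counts asks for about 10 reads, which the sense reads of Slc16a4 reached only in CR samples. Slc16a4 thus entered the sense-strand test only through the group where it was high, and its adjusted p there is no independent support. The mean sense level of Slc16a4 was 0.108 CPM ± 0.0564 (SD, n = 4) with AL and 0.504 CPM ± 0.226 (SD, n = 4) with CR.

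The sense reads of Slc16a11 numbered 3, 5, 6 and 5 on AL and 19, 27, 15 and 28 under CR in BMAd-Pnpla2+/+ mice, and 3, 7 and 0 in the BMAd-Pnpla2-/- AL samples. Those on the other strand numbered 10, 22, 18 and 11, then 40, 35, 29 and 10, and 18, 19 and 10. Sense reads rose with CR by 2.12 on the log2 scale (standard error 0.54, adjusted p = 0.0205), and the other strand had 0.80 (standard error 0.37, adjusted p = 0.207). The sense reads of Slc16a11 also passed the filter on low counts only through the CR samples, so that their adjusted p is no independent support either. The end of Slc16a11 and that of Slc16a13, on the opposite strand, lie 371 bases apart and the genes point toward each other. On its own sense strand Slc16a13 had a log2 fold change of -0.03 (adjusted p = 0.912). With sense reads, Slc16a1 and Slc16a7 missed the threshold in BMAd-Pnpla2+/+ mice, with adjusted p of 0.0556 and 0.0706, and Slc16a3 kept -0.69 (adjusted p = 0.0166). The members called were thus Slc16a3 and, within the limit of the filter given above, Slc16a4 and Slc16a11.

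**Figure D5:**
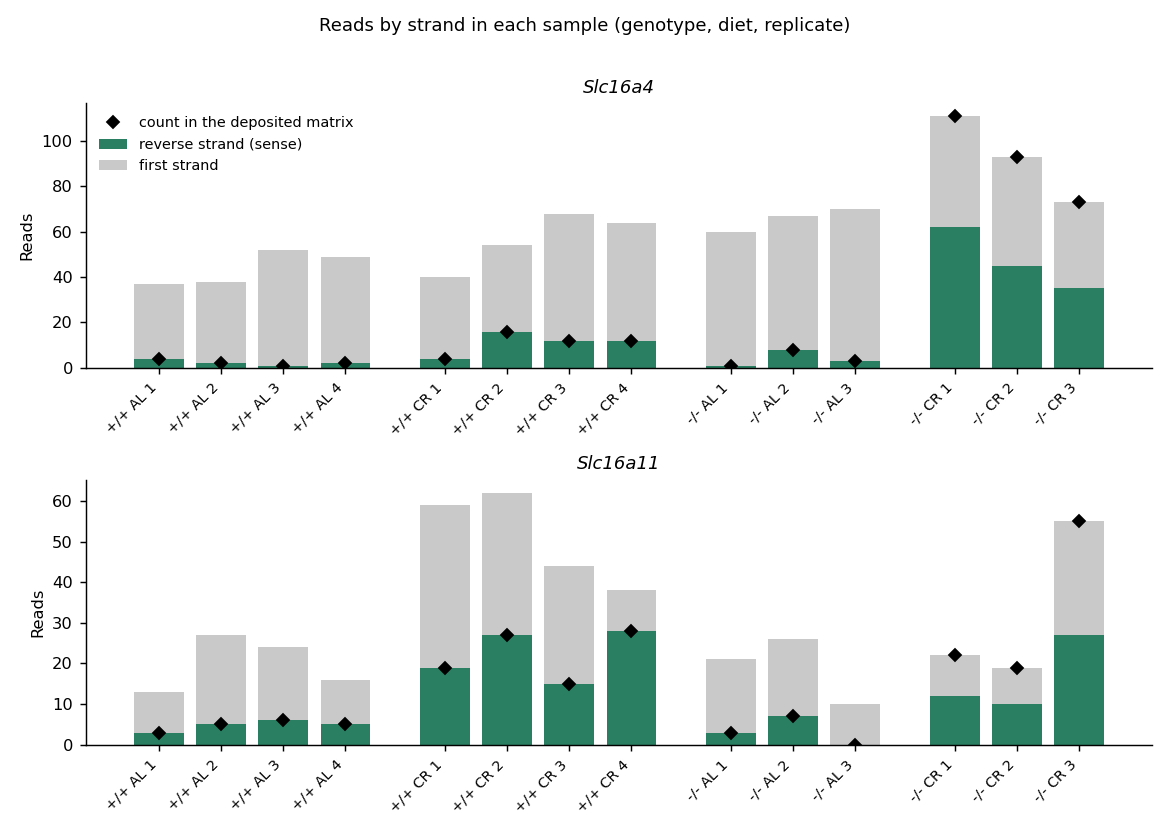
Reads of Slc16a4 (upper) and Slc16a11 (lower) on the reverse (sense, green) and first (grey) strand in each sample (horizontal axis: genotype, diet, replicate), with the count in the deposited matrix as a diamond. In 11 samples the diamond marks the sense reads alone, and in the 3 BMAd-Pnpla2-/- CR samples the reads of both strands, such as 111, 93 and 73 for Slc16a4.

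The mixed columns of the deposited matrix carried into these 2 genes. In the matrix Slc16a4 holds 1, 8 and 3 counts on AL and 111, 93 and 73 counts under CR in BMAd-Pnpla2-/- samples, against unstranded counts of 60, 67 and 70 for the AL samples. Fitted on the matrix as it is, Slc16a4 had a log2 fold change of 4.44 (standard error 0.54, adjusted p = 7.06e-05) with CR in BMAd-Pnpla2-/- mice and 3.20 (adjusted p = 1.69e-04) between genotypes under CR, beside 0.45 and 0.83 with all samples unstranded. In these 2 comparisons 3898 and 2451 of 17509 genes were called on the matrix, beside 2052 and 2 of 17671 unstranded. Slc16a11 had 3.14 (standard error 0.66, adjusted p = 0.00456) with CR in BMAd-Pnpla2-/- mice on the matrix, beside 0.73 unstranded. Between genotypes under CR, Slc16a11 changed sign, from -0.54 unstranded to 0.63 (adjusted p = 0.421) on the matrix.

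Counting without strand lowered Slc16a6 and Slc16a9, whose exons share bases with genes on the other strand. Slc16a6 shares 1052 exon bases with Amz2 and 48 with Arsg, and its unstranded count was 69.9% of the sum of both strands in the stranded samples and 67.0% in the BMAd-Pnpla2-/- CR samples. Slc16a9 shares 491 bases with Gm7097 and 419 with Gm9877, and its share was 59.1% and 60.7%. On the sense strand Slc16a9 had a mean of 10.1 CPM ± 1.80 (SD, n = 4) on AL and 14.7 CPM ± 4.28 (SD, n = 4) under CR in BMAd-Pnpla2+/+ samples, beside 6.16 CPM and 9.29 CPM without strand, and its log2 fold change of 0.55 (adjusted p = 0.134) stayed close to that of the unstranded count. For the other 7 members the unstranded count was 96.5 to 100% of the sum.

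The genes around these carriers were read from lists fixed with earlier results known. Outside the 9 members, the creatine carrier Slc16a12 of the same family rose with CR in BMAd-Pnpla2+/+ mice, with a log2 fold change of 1.24 (standard error 0.30, adjusted p = 0.0125). Slc16a12 also rose in BMAd-Pnpla2-/- mice, by 1.30 (standard error 0.36, adjusted p = 0.0362). Among chaperones, sodium-coupled carriers and the lactate receptor, 4 of 6 were tested and 1 was called, the receptor Hcar1 at 1.84 (standard error 0.48, adjusted p = 0.0164) in BMAd-Pnpla2+/+ mice, beside 1.58 (adjusted p = 0.0812) in BMAd-Pnpla2-/- mice. Hcar1 is known to restrain lipolysis in adipocytes. The chaperones Bsg, which brings MCT1 and MCT4 to the membrane, and Emb, which serves MCT2, had log2 fold changes of -0.36 (adjusted p = 0.173) and 0.01 (adjusted p = 0.973).

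The counts that follow stand beside 15.1% of all genes called higher and 10.9% lower with CR in BMAd-Pnpla2+/+ mice, and 6.04% and 5.57% in BMAd-Pnpla2-/- mice, while 8 of 8 adipocyte markers were higher in the first and 7 of 8 in the second. In lactate and pyruvate metabolism 8 of 15 genes were higher and 1 lower with CR in BMAd-Pnpla2+/+ mice, with a median log2 fold change of 0.27. Pdk4 and Pdk2, kinases that switch off pyruvate dehydrogenase, rose by 2.38 (adjusted p = 0.00446) and 0.75 (adjusted p = 0.00797), and Pcx, which turns pyruvate to oxaloacetate, by 1.43 (adjusted p = 0.00387). Pdk1, Pdp1, Dlat, Pdha1 and Ldhd were also called higher, the last being a dehydrogenase of D-lactate, with log2 fold changes from 0.27 to 1.08. Ldha, which makes lactate from pyruvate, fell by 0.39 on the log2 scale (adjusted p = 0.027). In BMAd-Pnpla2-/- mice 3 of the 15 were higher and none lower, Pdk4 by 2.12 (adjusted p = 0.0233), Pdp1 by 0.56 (adjusted p = 0.0199) and Pdk1 by 0.43 (adjusted p = 0.0245), while Ldha had -0.40 (adjusted p = 0.0641).

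The lists for the remaining substrates held fewer calls. Of 6 ketone body genes tested 1 was lower in BMAd-Pnpla2+/+ mice, Oxct1, which starts the use of ketone bodies, at -0.38 (adjusted p = 0.0223), and none was called in BMAd-Pnpla2-/- mice. Of 7 genes of aromatic amino acid and thyroid hormone handling 1 was higher in BMAd-Pnpla2+/+ mice, the thyroid hormone receptor Thra at 0.81 (adjusted p = 0.00834). Of 9 genes of carnitine and creatine handling 2 were called in BMAd-Pnpla2+/+ mice, the creatine carrier Slc6a8 higher at 1.25 (adjusted p = 0.0153) and Gatm, which starts creatine synthesis, lower at -0.66 (adjusted p = 0.00966), and 1 in BMAd-Pnpla2-/- mice, Gamt, the next enzyme of that path, at -0.79 (adjusted p = 0.0428). No gene of these lists was called between genotypes on either diet.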

How the data were processed

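Read pairs were aligned by the authors with STAR to mm10 after FastQC 0.11.9, and raw counts per gene were deposited for each sample (unstranded, first strand, reverse strand) with 1 matrix of counts of 23441 genes. The aligner's version was not given in the sources used here. Counts were used as deposited. The unstranded counts of all 14 samples were scaled by TMM, filtered with filterByExpr and fitted as 1 model of 4 group means with the robust quasi-likelihood test of edgeR 4.0.16 (R 4.3.3), with two-sided p-values adjusted by Benjamini and Hochberg over 17671 genes and a threshold of 0.05. DESeq2 1.42.0 served as an alternative. CPM for log2 values had a prior count of 2. Loci and exon lengths came from GENCODE M21 (GRCm38), and promoters from RefSeq. The fit was tested on simulated data. The members and gene lists were chosen with earlier results of these data known. Named genes were Pnpla2, the 9 members, genes near or over them on either strand, list genes called in any comparison, and the 2 genes nearest in pattern to each called member. Bsg, Emb and other genes named beyond that were chosen after their values were seen. Nothing says that replicates came from separate cohorts beyond the pooling of 2 mice, so p-values measure the spread between these samples. In each sample 21.1 to 25.6% of read pairs were not counted on 1 gene. The result of 1 listed gene is not reported here.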

Additional observations from a re-analysis of the deposited data

How the results depend on the processing

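Among single values under alternatives other than leaving out a sample, 384 kept their direction and their side of the threshold, 10 lost and 7 gained a call and 19 turned direction. With CR in BMAd-Pnpla2+/+ mice 4 members were called, 2 with the compared groups alone and 0 on the first strand, and 1 to 6 without 1 sample. Over all genes 4602 of 17671 were called there. The number was 2742 of 16699 with the compared groups alone, 586 of 9066 on the first strand and 2228 to 6029 without 1 sample. In BMAd-Pnpla2-/- mice 1 was called, 3 on the deposited matrix as it is, where the BMAd-Pnpla2-/- CR columns hold both strands, 2 with the compared groups alone, and 0 to 1 without 1 sample. Over all genes 2052 of 17671 were called there. The number was 3898 of 17509 on the matrix, 2672 of 16576 with the compared groups alone and 243 to 2435 without 1 sample. Between genotypes under CR 0 were called, 1 by DESeq2, 1 on the matrix, and 0 to 4 without 1 sample. Over all genes 2 of 17671 were called there, 1513 of 34539 by DESeq2, 2451 of 17509 on the matrix and 0 to 2112 without 1 sample. Between genotypes on AL and for the interaction the range of members called without 1 sample was 0 to 0, as it was over all genes. In the order of levels per length 4 of the 9 members kept their place on the sense strand of the 11 stranded samples, an alternative chosen after seeing the data. Unless named here, the cause of a change was not tested.

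Slc16a1 lost its call without the filter on low counts (adjusted p = 0.131). Directions that turned belonged to values not called in either fit. With CR in BMAd-Pnpla2+/+ mice Slc16a13 had 0.03 with total counts alone and 0.0063 with the sum of both strands, an alternative chosen after seeing the data, and Slc16a6 had 0.38 on the first strand. In BMAd-Pnpla2-/- mice Slc16a1 had -0.017 without the filter and Slc16a9 -0.11 on the matrix. Between genotypes on AL Slc16a11 had 0.0077 with the sum of both strands. Under CR Slc16a13 had -6.33e-05 with RLE factors, -0.0073 without the filter and -0.016 with the strand sum, and Slc16a3 had -0.0011 and -0.0018 in the last 2. On the matrix Slc16a9 had -0.29, Slc16a11 0.63 and Slc16a6 -0.0077 under CR, and -0.63, 1.04 and -0.10 for the interaction. The interaction of Slc16a7 was 0.013 with total counts alone.

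Leaving out 1 sample turned the direction of further values that were not called with all samples. Between genotypes on AL the log2 fold changes ranged from -0.31 to 0.11 for Slc16a1, -0.17 to 0.29 for Slc16a10, -0.26 to 0.26 for Slc16a11, -0.019 to 0.21 for Slc16a6 and -0.075 to 0.50 for Slc16a9. Under CR the ranges were -0.041 to 0.10 for Slc16a13 and -0.13 to 0.15 for Slc16a3. With CR they were -0.16 to 0.24 for Slc16a1 and -0.10 to 0.31 for Slc16a10 in BMAd-Pnpla2-/- mice, and -0.15 to 0.055 for Slc16a13 in BMAd-Pnpla2+/+ mice. For the interaction they were -0.28 to 0.0093 for Slc16a3, -0.018 to 0.33 for Slc16a4, -0.16 to 0.14 for Slc16a7 and -0.14 to 0.43 for Slc16a9.

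Replicate numbers showed no clear pairing of the samples. Over 19 pairs of samples with the same number the correlation of deviations had a median of 0.0155, with 7 over 0.1. Over 54 pairs with unlike numbers the median was -0.0089, with 16 over 0.1. With 3 or 4 samples in a group, these correlations cannot exclude a pairing. With the replicate number as a block 3 members were called with CR in BMAd-Pnpla2+/+ mice, Slc16a7 having 0.55 (adjusted p = 0.0588), and 1 in BMAd-Pnpla2-/- mice, and 0 in the other comparisons. Of 17671 genes this block gave 4253 called with CR in BMAd-Pnpla2+/+ mice, 1831 in BMAd-Pnpla2-/- mice and 2 between genotypes under CR. The interaction of Slc16a7 was then 0.029.

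Depth limits Slc16a4 and Slc16a11 most, whose sense reads numbered 0 to 28 per stranded sample. Slc16a1 and Slc16a7 rest on adjusted p just under the threshold.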
